A study of Xenopus laevis with 20 samples.

Results

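The Frizzled receptor genes of *Xenopus laevis* were followed through the gastrula in **Nog**, **Nog+Dkk**, **Dkk**, **Dor** and **Ven** tissue. The members were all probe sets whose single gene symbol is *fzd* followed by a number and .L or .S, the suffixes of the paired gene copies (homeologs) of this species. This gave 16 probe sets of 10 genes, out of 15491 probe sets tested and 7531 genes with a symbol of their own. Of these, 5 report *fzd7.L*, 2 report *fzd8.S*, 2 report *fzd10.S*, and *fzd1.L*, *fzd2.S*, *fzd3.L*, *fzd4.S*, *fzd5.S*, *fzd8.L* and *fzd10.L* have 1 each. Probe sets of 1 gene are told apart below by the end of their identifiers, such as S1_at. *fzd6* and *fzd9* were not analysed here.

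**Nog**, **Nog+Dkk** and **Dkk** were ventral tissue of embryos injected on the ventral side, into 1 blastomere at the 4-cell stage, with plasmid DNA for the BMP antagonist noggin, for noggin and the Wnt antagonist dkk-1 together, or for dkk-1, each with *eGFP* mRNA. **Dor** was dorsal tissue and **Ven** ventral tissue of embryos injected with *eGFP* mRNA alone, and within a clutch both came from the same embryos. Each condition was sampled at stage 10 (early gastrula, clutches 1 and 2) and at stage 11.5 (late gastrula, clutches 3 and 4), so that 20 arrays made 10 groups of 2, and each array held RNA of 10 pooled embryo pieces. With 2 arrays in a group, precision is limited by their number. Plasmid DNA is inherited unevenly by the descendants of the injected cell, tissue at stage 11.5 was cut with eGFP fluorescence as the ventral mark, and stage and clutch cannot be told apart, so differences in level between stages are given without a test.

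Frizzleds are seven-pass membrane proteins whose extracellular cysteine-rich domain binds Wnt ligands. With the co-receptors Lrp5 and Lrp6 they act on β-catenin, and with other partners on cell polarity and the convergent extension movements of the gastrula. Dkk-1 binds the Lrp co-receptors rather than Frizzled itself, whereas secreted Frizzled-related proteins carry a Wnt-binding domain without the membrane-spanning part. By sequence the family falls into the subgroups of *fzd1*, *fzd2* and *fzd7*, of *fzd5* and *fzd8*, of *fzd4*, *fzd9* and *fzd10*, and of *fzd3* and *fzd6*.

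The injections and the dissection were read from the same arrays. *dkk1.S* was higher than in **Ven** by 2.08 (**Nog+Dkk**) and 2.27 (**Dkk**) on the log2 scale at stage 10, and by 2.30 and 2.098 at stage 11.5, with adjusted p from 0.000985 to 0.00919. For *nog.L* the **Nog** change was 0.60 (adjusted p = 0.0589) and the **Nog+Dkk** change 0.47, not called (adjusted p = 0.203), at stage 10, and both were called at stage 11.5, with 0.63 and 0.75. In **Dor**, which received no plasmid, *dkk1.S* was higher than in **Ven** by 2.05 at stage 10 and 1.78 at stage 11.5. There *nog.L* was higher by 2.94 and 2.14. A rise of these probe sets therefore does not by itself show the plasmid. Of 27 probe sets of dorsal organizer markers, 21 were higher in **Dor** than in **Ven** at stage 10 and 24 at stage 11.5, and of 22 of ventral markers 8 and 11 were lower. The shares of all probe sets were 0.504% higher and 0.181% lower at stage 10, and 1.50% and 1.34% at stage 11.5. The summed intensity of the organizer list was 10530 to 11603 in **Dor** and 3835 to 4056 in **Ven** at stage 10, and 12479 to 15189 in **Dor** and 3522 to 5401 in **Ven** at stage 11.5. Array medians lay between 6.65 and 6.90 on the log2 scale. The **Nog+Dkk** and **Dkk** arrays of clutch 2 have titles that name clutch 2 and characteristics that name clutch 1, and were used as clutch 2.

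Against **Ven**, the family split by its calls in **Dor** at stage 11.5. *fzd8.S*, *fzd7.L*, *fzd4.S* and *fzd5.S* were higher there, and *fzd10.S* and *fzd10.L* were lower. *fzd5.S* and *fzd10.L* were called against **Ven** in no other condition. *fzd10.S* was also lower in **Nog+Dkk** and **Dkk**, but not in **Nog**. *fzd1.L*, *fzd2.S*, *fzd3.L* and *fzd8.L* did not pass the threshold in any of the 18 comparisons. A probe set was called at an adjusted p below 0.1 (limma, adjusted over all 15491 probe sets). In **Dor** at stage 10, 2 of 16 probe sets were called higher, against 0.504% of all probe sets, and 0 lower, against 0.181%. In **Dor** at stage 11.5, 8 were called higher, against 1.50%, and 3 lower, against 1.34%, and the 11 belonged to 6 genes. In **Nog+Dkk** at stage 11.5, 6 were called higher, against 2.66%, and 2 lower, against 1.94%. In **Nog** at stage 11.5, 4 were called higher, against 4.15%, and 0 lower, against 4.42%; all of the 4 report *fzd7.L*. In **Dkk** at stage 11.5, 0 were called higher, against 0.194%, and 2 lower, against 0.252%, both of *fzd10.S*. Probe sets of 1 gene are not independent, so these counts weigh *fzd7.L* heavily. The fit held the clutch as a block, and without it 5 of the 36 Frizzled calls over all comparisons held, 4 of them in **Dor** against **Ven**. In bulk tissue, fewer cells that express a gene and less of its RNA per cell cannot be told apart.

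At stage 10 no Frizzled probe set was called in the 3 plasmid conditions by limma. The background there was 0.116% higher and 0.0129% lower in **Nog**, 0.252% and 0.0194% in **Nog+Dkk**, and 0.0452% and 0% in **Dkk**. In each of them 1 of 16, the *fzd7.L* set 1.S2_at, had an unadjusted p below 0.05. Among all 15491 probe sets, **Nog** had 660 higher and 829 lower with such a p. **Nog+Dkk** had 464 higher and 327 lower, while **Dkk** had 248 higher and 259 lower. Rank products called 0 of the 16 as well. Their background for **Nog** was 0.155% of all probe sets higher and 0% lower. For **Nog+Dkk** it was 0.316% higher and 0.0258% lower, and for **Dkk** 0.129% higher and 0% lower. Between **Nog+Dkk** and **Nog** at that stage limma called 0 of 16 (0.00646% of all probe sets higher, 0% lower). Rank products called 0 (0.0258% higher, 0.00646% lower). An unadjusted p below 0.05 was reached there by 0 of the 16, and by 739 higher and 266 lower of all probe sets. The median log2 change of the 16 probe sets at stage 11.5 was 0.39 in **Dor**, 0.21 in **Nog+Dkk**, 0.06 in **Nog** and -0.01 in **Dkk**, and that of all probe sets was -0.02, -0.04, -0.03 and -0.01. Like the counts, these medians are over probe sets and weigh *fzd7.L* heavily. They do not show a rise of the family as a whole.

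**Figure D1:**
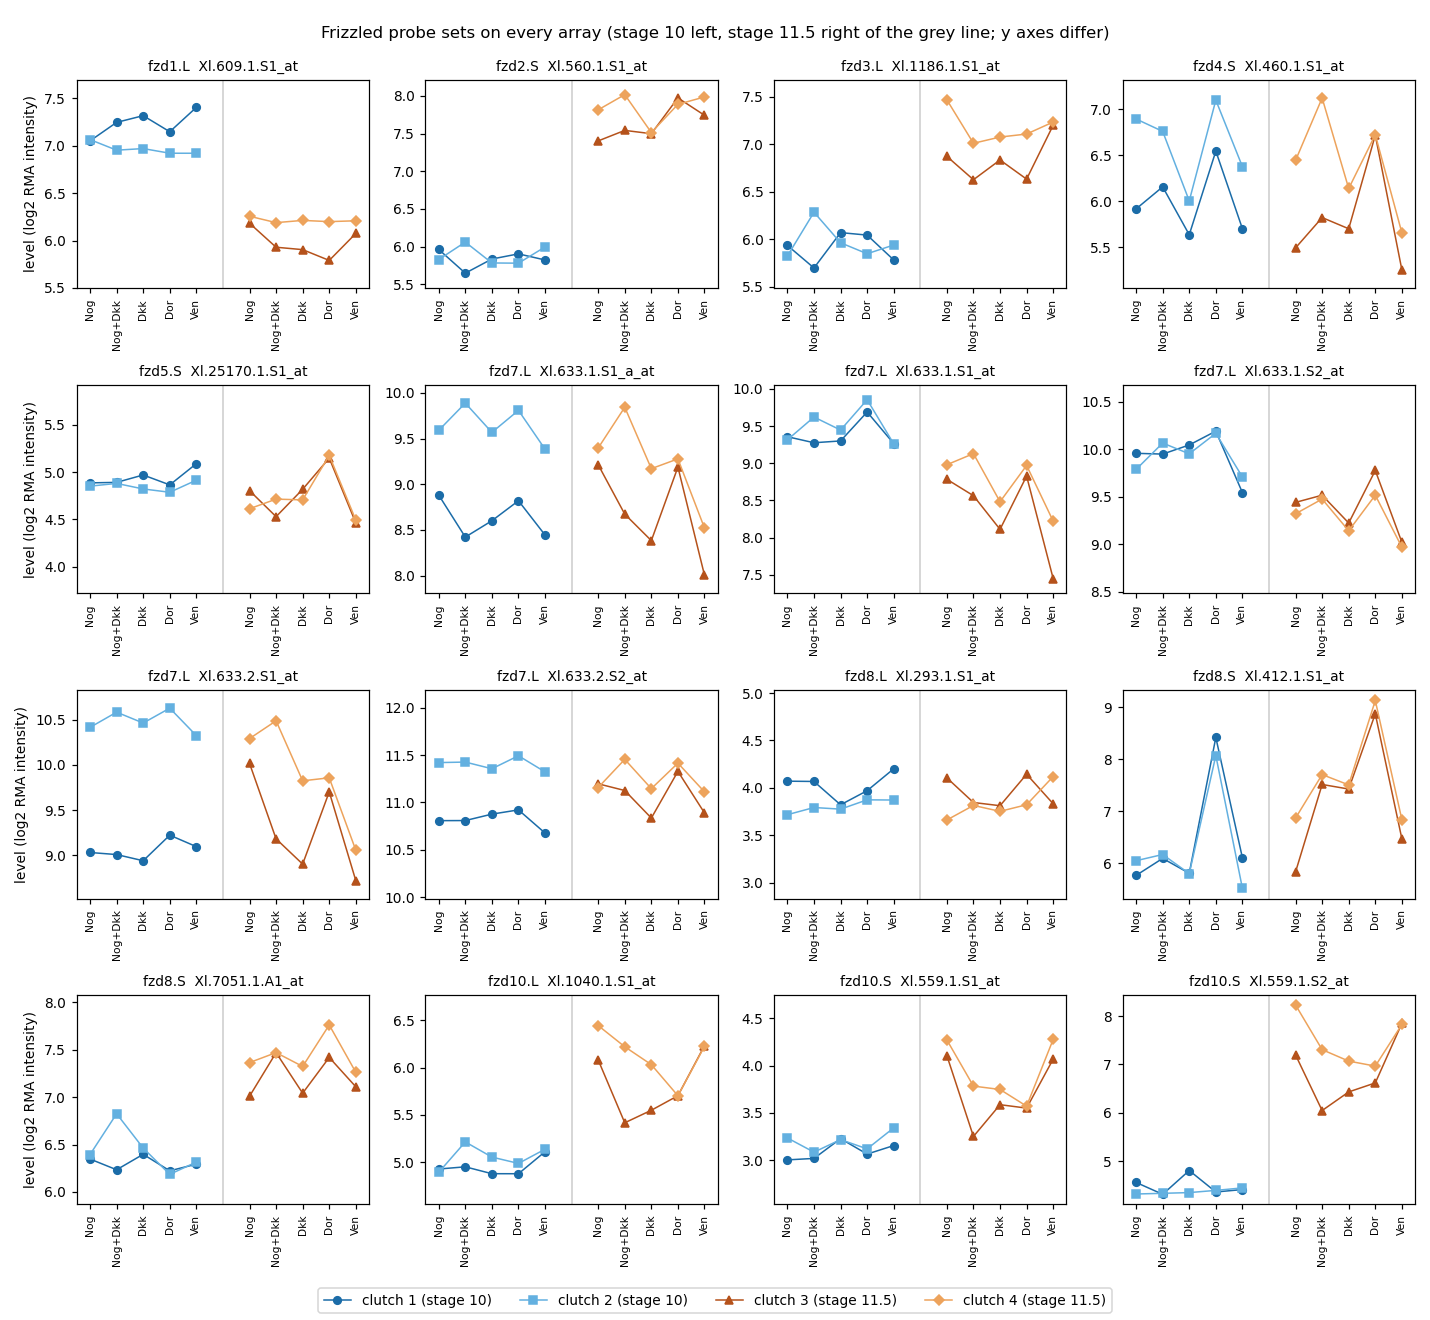
Level (log2 of the RMA intensity) of each of the 16 Frizzled probe sets on all 20 arrays; x axis, condition at stage 10 (left of the grey line) and stage 11.5 (right of it); points, single arrays; lines join the arrays of 1 clutch. *fzd8.S* (S1_at) peaks in **Dor** in all 4 clutches, between 8.07 and 9.13, and the *fzd10.S* set S2_at lies between 4.32 and 4.81 at stage 10 and between 6.05 and 8.23 at stage 11.5.

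**Figure D2:**
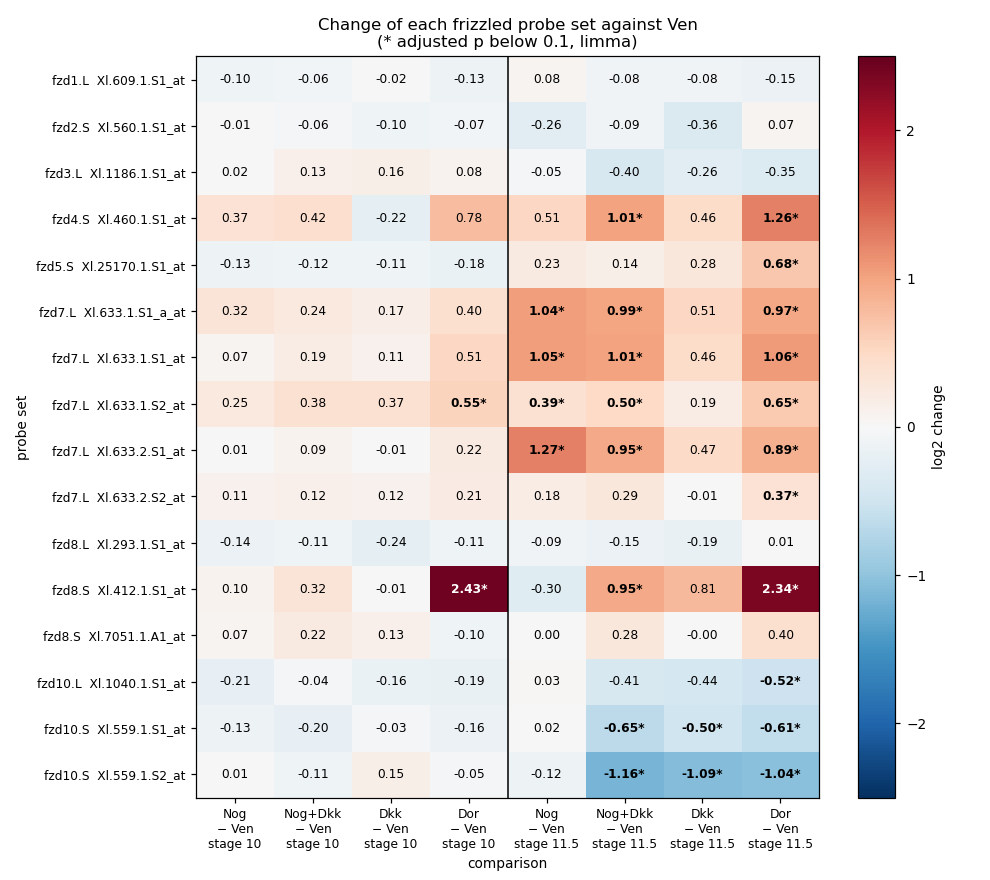
Log2 change of each Frizzled probe set (rows) against **Ven** in each condition and stage (columns); colour and printed value give the change, and a star marks an adjusted p below 0.1. The changes run from -1.16 (*fzd10.S*, **Nog+Dkk**, stage 11.5) to 2.43 (*fzd8.S*, **Dor**, stage 10), and no plasmid condition carries a star at stage 10.

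*fzd8.S*, whose product is a receptor expressed in the organizer and later in the anterior neural plate of *Xenopus*, was the member with the widest difference between dorsal and ventral tissue. At stage 10 its probe set S1_at stood at 8.42 and 8.07 (log2 level, clutches 1 and 2) in **Dor**, against 6.11 and 5.52 in **Ven**. The **Nog** arrays had 5.77 and 6.05, the **Nog+Dkk** arrays 6.10 and 6.17, and the **Dkk** arrays 5.81 and 5.81. The **Dor** arrays stood apart from the other 8 arrays of that stage. Each plasmid condition overlapped the range of **Ven**. Both **Nog+Dkk** arrays lay above the **Nog** and **Dkk** arrays, differences that limma did not call. The log2 change was 2.43 ± 0.19 (SE, n = 2 arrays per condition; adjusted p = 4.19e-07) in **Dor** over **Ven**, a 5.39-fold difference. **Nog+Dkk** was lower than **Dor** by a log2 difference of -2.11 ± 0.19 (adjusted p = 3.25e-06); this 1 called member compares with 0.265% of all probe sets lower and 0.478% higher in that comparison.

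At stage 11.5 the same probe set had 8.88 and 9.13 in **Dor** (clutches 3 and 4), against 6.47 and 6.84 in **Ven**. **Nog+Dkk** had 7.52 and 7.71 and **Dkk** 7.43 and 7.51, while **Nog** had 5.84 and 6.87. Both conditions with the dkk-1 plasmid thus lay between **Dor** and **Ven** without overlapping either, and **Nog** overlapped **Ven**. The change against **Ven** was 2.34 ± 0.19 (adjusted p = 5.75e-07) in **Dor** and 0.95 ± 0.19 (adjusted p = 0.0113) in **Nog+Dkk**. In **Dkk** it was 0.81 ± 0.19 and missed the threshold (adjusted p = 0.112), although rank products called it at an FDR of 4.33% (0.161% of all probe sets higher, 0.290% lower). In **Nog** it was -0.30 ± 0.19 (adjusted p = 0.421). **Nog+Dkk** stood above **Nog** by 1.26 ± 0.19 (adjusted p = 0.00413) and below **Dor** by a log2 difference of -1.39 ± 0.19 (adjusted p = 0.00147). Its difference from **Dkk** was 0.14, with a 95% confidence interval of -0.26 to 0.55. The **Dor** calls held with either clutch left out at both stages, while the difference between **Nog+Dkk** and **Nog** fell to 0.84 without clutch 3 (adjusted p = 0.215).

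The second probe set of *fzd8.S*, A1_at, did not share the dorsal difference of the first at stage 10. At stage 11.5 it was higher in **Dor** than in **Ven** in both clutches, by less than the first and without a call. At stage 10 it had 6.22 and 6.19 in **Dor**, against 6.29 and 6.32 in **Ven**, and at stage 11.5 it had 7.42 and 7.76 in **Dor**, against 7.11 and 7.26 in **Ven**. Its changes in **Dor** were -0.10 ± 0.13 (adjusted p = 1.00) and 0.40 ± 0.13 (adjusted p = 0.176). The correlation of the 2 sets over the 20 arrays, with clutch means removed, was 0.25, given as a description of arrays that share conditions. The homeolog *fzd8.L* had levels between 3.66 and 4.20 on all arrays, and its change in **Dor** was -0.11 ± 0.14 at stage 10 and 0.01 ± 0.14 at stage 11.5. The called dorsal differences of *fzd8* therefore rest on 1 of 3 probe sets.

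*fzd7.L* encodes a receptor used in *Xenopus* for convergent extension and for maternal Wnt signalling, and its 5 probe sets gave it the most calls. The set 1.S1_at had, at stage 10, 9.69 and 9.85 in **Dor**, against 9.26 and 9.26 in **Ven**, with the plasmid conditions between 9.28 and 9.62. At stage 11.5 it had 8.83 and 8.97 in **Dor**, and 8.78 and 8.98 with noggin alone (**Nog**), 8.56 and 9.13 in **Nog+Dkk** and 8.11 and 8.48 in **Dkk**, against 7.45 and 8.22 in **Ven**. In each of clutches 3 and 4 the **Ven** array was the lowest of the 5. The changes against **Ven** at stage 11.5 were 1.06 ± 0.13 (SE) for **Dor** (adjusted p = 8.87e-05), 1.05 ± 0.13 for **Nog** (adjusted p = 0.00127) and 1.01 ± 0.13 for **Nog+Dkk** (adjusted p = 0.000442), differences of 2.01-fold to 2.09-fold. **Dkk** had 0.46 ± 0.13 and was not called (adjusted p = 0.250).

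The other *fzd7.L* sets had the same sign in **Nog**, **Nog+Dkk** and **Dor** but not the same size. In **Nog** at stage 11.5, 2.S1_at had 10.02 and 10.29, against 8.72 and 9.06 in **Ven**, a change of 1.27 ± 0.19 (adjusted p = 0.00248). 2.S2_at had 11.20 and 11.16 in **Nog**, against 10.89 and 11.11 in **Ven**, a change of 0.18 ± 0.10 that was not called (adjusted p = 0.382). 1.S1_a_at changed by 1.04 ± 0.20 and 1.S2_at by 0.39 ± 0.10 in **Nog**. The 5 sets therefore ran from 0.18 to 1.27 for 1 gene and 1 contrast. They ran from 0.37 to 1.06 in **Dor**, with 5 of the 5 called, from 0.29 to 1.01 in **Nog+Dkk**, with 4 called, and from -0.01 to 0.51 in **Dkk**, with 0 called. **Nog+Dkk** did not pass the threshold against **Nog**, **Dkk** or **Dor** in any *fzd7.L* set at stage 11.5. Against **Dkk** the 5 differences were 0.30 to 0.55 and each 95% interval lay above 0, with the lowest adjusted p at 0.156.

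Clutch moved some *fzd7.L* sets as much as condition did. At stage 10, 2.S1_at had 9.03, 9.01, 8.94, 9.22 and 9.10 in **Nog**, **Nog+Dkk**, **Dkk**, **Dor** and **Ven** of clutch 1, and 10.42, 10.58, 10.46, 10.63 and 10.32 in the same conditions of clutch 2. Every array of clutch 2 lay above every array of clutch 1, while conditions within a clutch were close together. The set 1.S1_at had no such gap, with 9.26 to 9.69 in clutch 1 and 9.26 to 9.85 in clutch 2. All 5 sets carry the same symbol, and which transcript copy each one reads was not tested. Several calls were lost when 1 clutch was left out. In **Nog+Dkk** without clutch 4, 2.S1_at had 0.46, against 0.95 in full, 1.S1_a_at had 0.67, against 0.99, and 1.S2_at kept its value of 0.50, with adjusted p from 0.103 to 0.163. The call of 1.S2_at in **Nog** was lost without clutch 3 (0.35) or clutch 4 (0.42). In **Dor** that of 2.S2_at was lost without clutch 3 (0.30) or clutch 4 (0.44), and that of 1.S2_at without clutch 3 (0.55). With all clutches these values were 0.39, 0.37 and 0.65. Rank products at 10% FDR, the method of the study, did not call 1.S2_at in **Nog**, **Nog+Dkk** or **Dor** at stage 11.5, with FDR of 90.1%, 47.0% and 11.9%, nor 2.S2_at in **Dor** (42.1%).

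At stage 10, 1 *fzd7.L* set was called in **Dor**. 1.S2_at had 10.19 and 10.17 in **Dor**, against 9.54 and 9.71 in **Ven**, with every plasmid array between 9.79 and 10.07. All 8 arrays of the other conditions were thus above both **Ven** arrays. The change in **Dor** was 0.55 ± 0.10 (adjusted p = 0.0118), and it lost its call without clutch 1 (0.46) or clutch 2 (0.65). For this set the changes of **Nog**, **Nog+Dkk** and **Dkk** were 0.25, 0.38 and 0.37, with adjusted p of 0.487, 0.363 and 0.929, and all of them share the same **Ven** arrays.

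*fzd4.S* belongs to the subgroup of *fzd10*, and in mammals Fzd4 is also the receptor for norrin. It was higher in **Dor** and **Nog+Dkk** at stage 11.5. It had 6.72 and 6.72 in **Dor** and 5.82 and 7.12 in **Nog+Dkk**, against 5.26 and 5.66 in **Ven**. **Nog** had 5.49 and 6.44 and **Dkk** 5.702 and 6.14, so that in each clutch all 4 other conditions were above **Ven**. The change was 1.26 ± 0.21 (adjusted p = 0.00128) in **Dor** and 1.01 ± 0.21 (adjusted p = 0.0113) in **Nog+Dkk**, and without clutch 4 the **Nog+Dkk** value was 0.57 (adjusted p = 0.132). **Nog** and **Dkk** had 0.51 and 0.46 and were not called (adjusted p = 0.170 and 0.565). At stage 10 it had 6.54 and 7.097 in **Dor**, against 5.703 and 6.38 in **Ven**, a change of 0.78 ± 0.21 that missed the threshold (adjusted p = 0.165). Rank products called it higher at an FDR of 3.65%, where they called 0.613% of all probe sets higher and 0.355% lower. At that stage **Nog+Dkk** exceeded **Dkk** by 0.64, which rank products called and limma did not (adjusted p = 1.00). Of all probe sets limma called 0.0129% higher and 0% lower there, and rank products 0.245% and 0.0194%.

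*fzd5.S*, a receptor with a known role in the *Xenopus* eye field, was higher in **Dor** at stage 11.5. It had 5.15 and 5.18 in **Dor**, against 4.46 and 4.49 in **Ven**, with the plasmid conditions between 4.53 and 4.82. The **Dor** arrays were above all others of that stage. The change was 0.68 ± 0.10 (adjusted p = 0.000635), with a rank product FDR of 10.1%, just past the 10% limit. **Nog+Dkk** was below **Dor** by a log2 difference of -0.54 ± 0.10 (adjusted p = 0.0208; -0.46 without clutch 3, adjusted p = 0.172; rank product FDR 28.2%), and with *fzd8.S* it made 2 of 16 called lower, against 0.381% of all probe sets, and 0 higher, against 0.155%. At stage 10 it had 4.86 and 4.79 in **Dor**, against 5.09 and 4.91 in **Ven**, and was not called. Its mean over the arrays is below 5.23, the lower quartile of all probe sets, as are those of *fzd8.L* and the *fzd10.S* set S1_at, while 13 of the 16 are above it.

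*fzd10* showed the opposite direction. Its product is a Wnt receptor known from the dorsal neural tube and neural crest region of later *Xenopus* embryos. The *fzd10.S* set S2_at had 6.62 and 6.97 in **Dor** at stage 11.5, 6.05 and 7.31 in **Nog+Dkk** and 6.43 and 7.07 in **Dkk**, against 7.85 and 7.83 in **Ven**. **Nog** had 7.20 and 8.23. The arrays of **Nog+Dkk**, **Dkk** and **Dor** were all below both **Ven** arrays, and those of **Nog** lay on either side of them. The changes were -1.04 ± 0.21 for **Dor** (adjusted p = 0.00821), -1.16 ± 0.21 for **Nog+Dkk** (adjusted p = 0.00459) and -1.09 ± 0.21 for **Dkk** (adjusted p = 0.0359). **Nog** had -0.12 ± 0.21 (adjusted p = 0.813). Without clutch 3 the **Nog+Dkk** value was -0.52 (adjusted p = 0.105), and without clutch 4 it was -1.80.

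The second *fzd10.S* set, S1_at, was lower in the same 3 conditions at that stage, with 3.55 and 3.57 in **Dor** tissue, 3.25 and 3.78 in **Nog+Dkk** and 3.59 and 3.75 in **Dkk**, against 4.07 and 4.28 in **Ven**. Its changes were -0.61 ± 0.11, -0.65 ± 0.11 and -0.50 ± 0.11 in the same order of conditions, with adjusted p of 0.00511, 0.00383 and 0.0901. Rank products called none of these 3, with FDR of 16.5%, 28.8% and 22.8%, while they called S2_at in all 3 conditions. The **Dkk** call was lost without clutch 3 (-0.53) or clutch 4 (-0.48). The homeolog *fzd10.L* had 5.703 and 5.703 in **Dor**, against 6.23 and 6.22 in **Ven**, a change of -0.52 ± 0.15 (adjusted p = 0.0942), which without clutch 3 was -0.52 with an adjusted p of 0.173 and which rank products did not call (FDR 22.5%). In **Nog+Dkk** and **Dkk** *fzd10.L* had -0.41 and -0.44 and was not called (adjusted p = 0.172 and 0.389). The 3 *fzd10* sets correlated at 0.82 to 0.90 over the 20 arrays after clutch means were removed, given as a description, since the arrays share conditions and sets of homeologs can share signal.

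**Nog+Dkk** and **Nog** differed in *fzd10.S* as well as in *fzd8.S*. At stage 11.5 **Nog+Dkk** was below **Nog** by log2 differences of -1.04 ± 0.21 (adjusted p = 0.0347) for S2_at and -0.67 ± 0.11 (adjusted p = 0.00955) for S1_at, and the second of these was -0.49 without clutch 3 (adjusted p = 0.394). *fzd10.L* had -0.44 and was not called (adjusted p = 0.442). Together with *fzd8.S* this made 1 of 16 called higher, against 0.452% of all probe sets, and 2 lower, against 0.207%. Between **Nog+Dkk** and **Dkk** at stage 11.5 limma called 0 of 16, against 0.271% higher and 0.0646% lower. Rank products also called 0 (0.278% of all probe sets higher, 0.0710% lower). An unadjusted p below 0.05 was reached by 7 of the 16, every *fzd7.L* set among them. Of all 15491 probe sets, 458 higher and 530 lower reached it. For the *fzd10.S* set S2_at the difference of **Nog+Dkk** from **Dkk** was -0.07, with a 95% interval of -0.51 to 0.36.

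**Figure D3:**
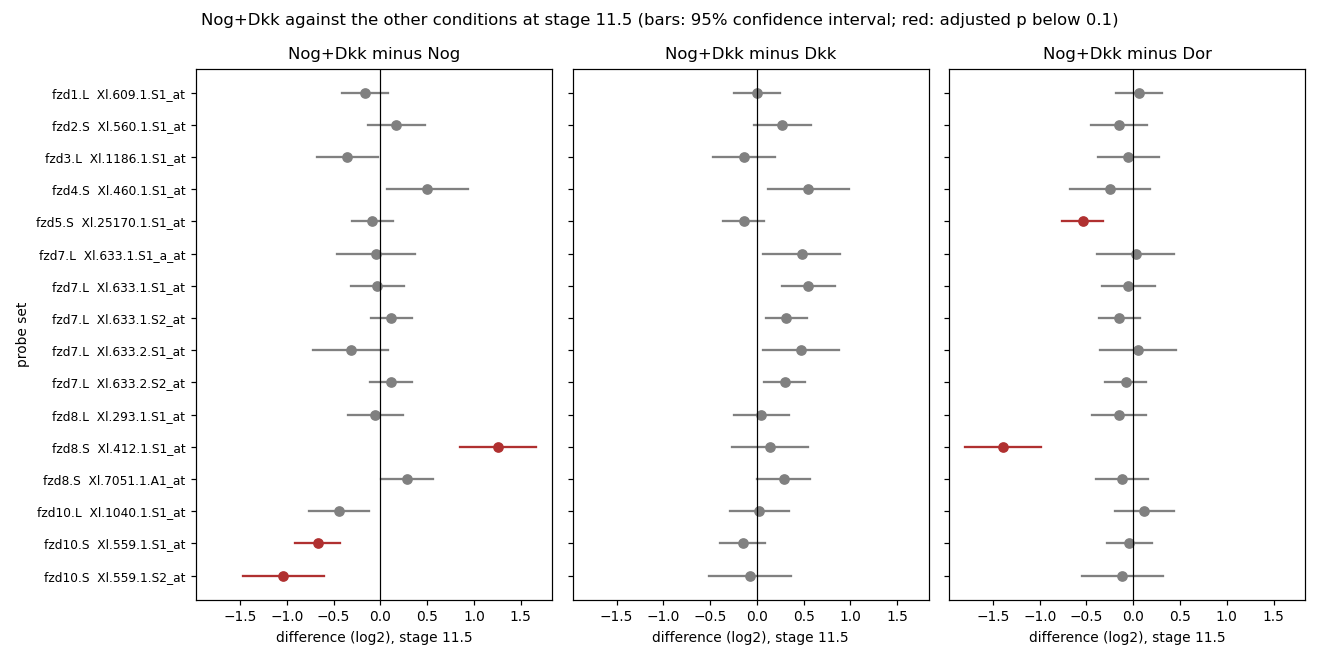
Log2 difference of **Nog+Dkk** from **Nog** (left), **Dkk** (middle) and **Dor** (right) at stage 11.5 for each Frizzled probe set; points, fitted differences; bars, 95% confidence intervals; red, adjusted p below 0.1. *fzd8.S* (S1_at) differs by 1.26 from **Nog** and by -1.39 from **Dor**, *fzd10.S* by -0.67 and -1.04 from **Nog**, and no interval against **Dkk** is red.

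Levels also differed between the stages, without a test because each stage has its own clutches. In 5 of the 16 probe sets all 10 arrays of stage 11.5 lay above all 10 of stage 10, against 14.3% of all probe sets, and in 2 all lay below, against 18.4%. The *fzd10.S* set S2_at had the largest difference between stage medians, with a median of 7.13 (6.05 to 8.23) at stage 11.5 and of 4.38 (4.32 to 4.81) at stage 10. *fzd2.S* had 7.40 to 8.02 at stage 11.5 and 5.65 to 6.06 at stage 10, *fzd3.L*, a receptor with known roles in neural development and axon guidance, had 6.63 to 7.47 and 5.697 to 6.28, and *fzd10.L* had 5.42 to 6.44 and 4.88 to 5.22. The *fzd8.S* set A1_at, with 7.01 to 7.76 and 6.19 to 6.82, was the fifth. *fzd1.L* went the other way, with 5.79 to 6.26 at stage 11.5 and 6.92 to 7.40 at stage 10, as did the *fzd7.L* set 1.S1_at, with 7.45 to 9.13 and 9.26 to 9.85. In the other 4 *fzd7.L* sets the stages overlapped. *fzd1.L* and *fzd2.S*, which belong to 1 subgroup, had stage differences of opposite sign.

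**Figure D4:**
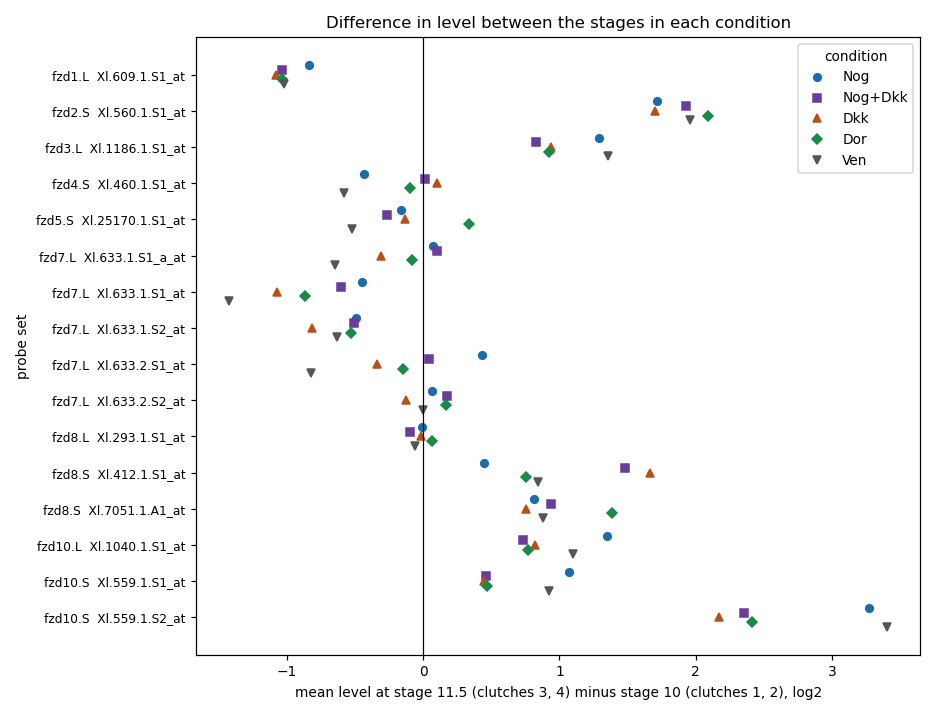
Mean log2 level at stage 11.5 minus that at stage 10 (x axis) for each Frizzled probe set (rows), with 1 point per condition; each mean is of 2 arrays, and the stages have different clutches. *fzd2.S* and *fzd10.S* lie right of 0 and *fzd1.L* left of 0 in all 5 conditions, while the points of *fzd8.S* (S1_at) and *fzd5.S* spread by condition.

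Whether a condition's change against **Ven** differed between the stages could be tested, since **Ven** of the same clutches cancels a shift shared by a stage. In **Dor** the change of *fzd5.S* was 0.86 ± 0.15 larger at stage 11.5 (adjusted p = 0.0113), 1 of 16 higher against 0.290% of all probe sets and 0 lower against 0.232%. In **Nog** the changes of the *fzd7.L* sets 1.S1_at and 2.S1_at were larger by 0.97 ± 0.19 (adjusted p = 0.0517) and 1.25 ± 0.27 (adjusted p = 0.0643), 2 of 16 against 0.555% higher and 0 against 1.00% lower. For *fzd5.S* the difference was 0.81 without clutch 1 and 0.91 without clutch 2, neither of them called, and for the 2 *fzd7.L* sets it was 0.99 and 1.17 without clutch 1 and 0.95 and 1.33 without clutch 2, with adjusted p from 0.245 to 0.776. Without clutch 3 the first *fzd7.L* set had 0.69 (adjusted p = 0.1001). In **Nog+Dkk** and **Dkk** limma called 0 of 16. The background was 0.0581% higher and 0.0839% lower in **Nog+Dkk**, and 0% and 0.0129% in **Dkk**. An unadjusted p below 0.05 was reached by 7 and 5 of the 16. Of all 15491 probe sets it was reached by 519 higher and 863 lower in **Nog+Dkk**, and 389 and 438 in **Dkk**. The *fzd10.S* set S2_at, at -0.05 in **Dor** at stage 10 and -1.04 at stage 11.5, had a difference of -0.99 ± 0.29 that was not called (adjusted p = 0.317). For *fzd8.S* (S1_at) in **Dor** the difference was -0.09, with a 95% interval of -0.66 to 0.49.

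Other components of Wnt signalling were described with the same fit. Against **Ven** at stage 11.5, the shares of all probe sets called higher and lower were 1.50% and 1.34% in **Dor**. They were 2.66% and 1.94% in **Nog+Dkk**, 4.15% and 4.42% in **Nog**, and 0.194% and 0.252% in **Dkk**. At stage 10 they were 0.504% and 0.181% in **Dor**. Some probe sets are in more than 1 list. Of 13 probe sets of Wnt ligands, 0 were called higher and 3 lower in **Dor** at stage 11.5, namely *wnt8a.L* (-1.06), *wnt3a.S* (-0.90) and *wnt5b.S* (-0.48). In **Nog+Dkk** 1 was lower, *wnt3a.S* (-0.57), in **Nog** 1 was higher, *wnt4.L* (0.32), and in **Dkk** 0 were called. At stage 10, 1 ligand was lower in **Dor**, *wnt8a.L* (-0.86), and 0 were called in the plasmid conditions. Of 13 probe sets of secreted Wnt inhibitors, 7 were higher and 2 lower in **Dor** at stage 11.5, and *frzb2.L* and *frzb.L*, which encode Frizzled-related proteins, had 2.84, 2.45 and 1.82 in their 3 sets. In the same list *szl.S*, a sizzled gene whose product acts on the BMP pathway, was lower in **Dor** (-2.16), **Nog** (-1.52) and **Nog+Dkk** (-1.80). In **Dkk** 5 of the 13 were higher and 0 lower, and *dkk1.S*, the gene that was injected, is 1 of the 5. The median of the list in **Dor** was 0.71, and that of all probe sets -0.02.

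Among 22 probe sets of co-receptors and other surface partners, *kremen2.S*, whose product binds Dkk and removes Lrp6 from the surface, was lower at stage 11.5 in **Dor** (-1.13), **Nog+Dkk** (-1.04) and **Dkk** (-0.84), the same conditions in which *fzd10.S* was lower. The list had 3 called higher and 0 lower in **Nog**, 1 and 1 in **Dor**, 0 and 1 in **Dkk**, and 1 and 3 in **Nog+Dkk**. *gpc4.L*, a glypican, was the 1 called higher in both **Nog+Dkk** (0.66) and **Dor** (0.52), and was among the 3 called higher in **Nog** (0.55). Of the co-receptors, *lrp6.L* was higher in **Nog** (0.42) and *lrp5.L* lower in **Nog+Dkk** (-0.42). Of 46 probe sets of cytoplasmic and nuclear transducers, 7 were higher and 1 lower in **Nog+Dkk**, 4 and 0 in **Nog**, and 0 and 1 in **Dkk**. In **Dor** 2 were higher and 0 lower. These 2 were the *tcf7l1* homeologs (0.99 for *tcf7l1.L* and 0.90 for *tcf7l1.S*), which encode a repressing partner of β-catenin. Both were also called higher in **Nog+Dkk** (0.61 and 0.71 in the same order).

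Of 29 probe sets of direct Wnt targets, 10 were lower and 1 higher in **Dor** at stage 11.5, as many in **Nog+Dkk**, and 4 and 0 in **Dkk**, while **Nog** had 0 lower and 2 higher. Some of the 29, such as *msx1.L*, *msx1.S* and *ventx2.2.L*, are also among the ventral markers, and *axin2.L* is also among the transducers. *axin2.L*, a feedback target, had -0.90 in **Nog+Dkk** and -0.93 in **Dkk**. The list's medians were -0.41, -0.30, -0.20 and 0.01 in **Dor**, **Nog+Dkk**, **Dkk** and **Nog**. Of 61 probe sets of planar cell polarity and convergent extension genes, the pathway that *fzd7* also serves, 1 was higher and 0 lower in **Dor**, against 5 and 0 for **Nog+Dkk** and 10 and 1 for **Nog**. The shares of all probe sets called higher were 1.50%, 2.66% and 4.15% in the same order. *cdc42.L* has more than 1 set among those called in **Nog**. The *prickle1* homeologs, which encode a cytoplasmic polarity protein, had 0.72 and 0.66 in **Nog+Dkk**. At stage 10 the direct targets had 5 higher and 2 lower in **Dor**, with *nodal3.1.L* at 3.55, *sia1.L* at 1.03, *ventx2.2.L* at -1.15 and *ventx2.1.S* at -1.05, and 0 called in the plasmid conditions. At that stage the lists of co-receptors, transducers and polarity genes had between 0 and 1 called in each condition against **Ven**.

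Other tissue markers moved with some of these conditions. The shares of all probe sets called higher and lower at stage 11.5 were 1.50% and 1.34% in **Dor** and 2.66% and 1.94% in **Nog+Dkk**. They were 4.15% and 4.42% in **Nog** and 0.194% and 0.252% in **Dkk**, and in **Dor** at stage 10 they were 0.504% and 0.181%. Of 30 probe sets of neural plate markers, 12 were higher in **Dor**, 8 in **Nog+Dkk**, 0 in **Dkk** and 1 in **Nog** at stage 11.5, with summed intensities of 11431 to 12919 in **Dor** and 11221 to 11643 in **Nog+Dkk**, against 8449 to 9084 in **Ven**. Of 7 germ plasm markers, 4 were higher in **Nog** at stage 11.5, with sums of 1860 to 2610 in **Nog**, against 1650 to 1690 in **Ven**, beside the *fzd7.L* calls of the same arrays. Of 20 epidermis markers, 3 were lower in **Dor** at stage 10, with sums of 3125 to 4185 in **Dor**, against 4295 to 5718 in **Ven**. At that stage 1 of them, *foxi1.L*, was higher in **Nog** (1.12) and **Nog+Dkk** (1.55). The shares of all probe sets called higher there were 0.116% and 0.252%. At stage 11.5, 2 epidermis markers were lower in **Nog** and 1 in **Nog+Dkk**, and 0 were called in **Dkk** and **Dor**. Of 22 endoderm markers, 2 were higher and 5 lower in **Dor** at stage 11.5, 1 and 3 in **Nog+Dkk**, 3 and 1 in **Nog** and 0 in **Dkk**. Their sums overlapped, with 9942 to 13229 in **Dor**, 10980 to 15461 in **Nog+Dkk** and 14550 to 15023 in **Nog**, against 10894 to 14691 in **Ven**. At stage 10, 2 were higher in **Dor**. Of 19 housekeeping probe sets, 1 was called in 1 of the 8 comparisons with **Ven**, lower in **Nog** at stage 11.5. No marker is at 0 in these background-adjusted values, and the part of these tissues in the Frizzled differences was not tested.

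The patterns of *fzd8.S*, *fzd7.L* and *fzd10.S* were set against all other probe sets with a single symbol, by Pearson's r over 20 arrays after clutch means were removed. *fzd8.S* (S1_at) was most like *admp.S*, which encodes a BMP-family ligand of the organizer, at 0.989 and 0.981 in its 2 sets, and *otx2.L*, an anterior transcription factor, at 0.965. The other *fzd8.S* set, A1_at, correlated with the same sets at only 0.301, 0.321 and 0.380, so this likeness belongs to S1_at alone. *fzd7.L* was read by 2.S2_at, its set with the highest mean signal, which had smaller changes than the other 4 in **Nog** and **Dor** at stage 11.5 and correlated with them at 0.680 to 0.864. It was most like *irx2.L* (0.883), *zic2.S* (0.877) and *cnbp.L* (0.861). With the other 4 sets these genes correlated at 0.546 to 0.822, 0.605 to 0.845 and 0.504 to 0.819 in the same order. *fzd10.S* (S2_at) was most like both homeologs of the zinc finger gene *znf703* (0.918 for *znf703.L* and 0.911 for *znf703.S*) and *kremen2.S* (0.890). These are the highest of many correlations over arrays that share their conditions, and describe likeness of pattern alone.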

How the data were processed

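Ventral and dorsal tissue of *X. laevis* gastrulae was profiled on 20 Affymetrix arrays. The authors made the deposited intensity values with RMA in RMAExpress, which adjusts the background, equalizes the quantiles of the arrays and summarizes the probes of each set, on a linear scale. The version of the program was not given in the sources used here, and the intensities were log2 transformed here (the study's methods describe log2 values, but the deposited ones are linear). They carry no detection flags. The signal of a probe set depends on its probes. It was set against that of other probe sets to mark those below the lower quartile, which were removed in an alternative fit. It also served to choose the set with the highest mean of a gene with several, and was summed over the probe sets of marker lists.

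Of 15611 probe sets, 120 controls were left out, and no filter on low values was used in the main fit. Symbols came from the array's annotation; 9304 probe sets had 1 symbol, 195 several and 5992 none, and 2 symbols were updated. Probe sets of homeologs can share signal.

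Limma 3.58.1 (R 4.3.3) was fitted to 10 groups with the clutch as a block (8 residual and 9.82 prior degrees of freedom), with Benjamini-Hochberg adjustment within each of 18 comparisons. Arrays of 1 clutch deviated together from their condition means, with correlations of 0.681 to 0.841 at stage 10 and 0.485 to 0.801 at stage 11.5 over 10 pairs of conditions each. The block takes out the shift between the clutches of a stage. The p-values therefore measure how unevenly the condition differences repeat between the 2 clutches of a stage, pooled over both stages. The step was tested on simulated data. Alternatives were a fit without the block, each stage alone, a stricter threshold, a trended robust prior, removal of the probe sets below the lower quartile of mean level, cyclic loess, rank products at 10% FDR as in the study, each clutch left out, and removal of the 2 arrays with conflicting clutch labels.

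All Frizzled probe sets are named, and so are the 3 probe sets most like each of *fzd7.L*, *fzd8.S* and *fzd10.S*. Called members named from the Wnt lists and the epidermis list are among the 4 with the largest changes in a comparison. Not all of those 4 are named. The members and lists were chosen with earlier results of these data known. Figures were drawn with matplotlib 3.10.9.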

Additional observations from a re-analysis of the deposited data

Results flagged for a closer look

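In 3 cases the change of a Frizzled probe set against **Ven** differed between the stages by the test of the difference itself. *fzd5.S* changed in **Dor** by 0.68 at stage 11.5 and -0.18 at stage 10, a difference of 0.86 (limma adjusted p = 0.0113). The *fzd7.L* set 1.S1_at changed in **Nog** by 1.05 at stage 11.5 and 0.07 at stage 10, a difference of 0.97 (adjusted p = 0.0517). The *fzd7.L* set 2.S1_at changed in **Nog** by 1.27 at stage 11.5 and 0.01 at stage 10, a difference of 1.25 (adjusted p = 0.0643). In each case the mean level of **Ven** was lower at stage 11.5 than at stage 10, by log2 differences of -0.52, -1.43 and -0.82 in the same order. The mean level of the other condition differed by 0.34 (*fzd5.S*, **Dor**), -0.45 (1.S1_at, **Nog**) and 0.43 (2.S1_at, **Nog**). These differences in level were not tested. Each stage has clutches of its own, so the stage and the clutches cannot be told apart in any of these differences.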

How the results depend on the processing

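Only cyclic loess and the fits that left out a clutch or the 2 arrays with conflicting labels could change the direction of a called result. None of them did. The other alternatives keep the fitted log2 change itself, so their unchanged direction says nothing. With the trended robust prior all 36 called results kept their call. Without the replicate block, 31 of the 36 lost their call. The 5 that kept it were *fzd8.S* in **Dor** at both stages and between **Nog+Dkk** and **Dor** at stage 10, and *fzd5.S* and the *fzd7.L* set 1.S2_at in **Dor** at stage 11.5. The number of called Frizzled probe sets without the block was 1 in **Dor** at stage 10, 3 in **Dor** at stage 11.5, and 0 in **Nog**, **Nog+Dkk**, **Dkk**, **Nog+Dkk** against **Nog** and against **Dor** at stage 11.5 and in the stage differences of **Nog** and **Dor**. With each stage fitted alone the number was 4 in **Dor** at stage 10, and at stage 11.5 it was 0 in **Dkk** and 1 in **Nog+Dkk** against **Nog** and against **Dor**. At an adjusted p below 0.05 it was 1 in **Dkk** at stage 11.5 and 0 in the stage difference of **Nog**. With the trended prior it was 1 in **Nog+Dkk** against **Dkk** at stage 11.5 and 1 in the stage difference of **Nog+Dkk**. Without the probe sets below the lower quartile it was 1 in **Dkk** and 1 in **Nog+Dkk** against **Dor** at stage 11.5, and 0 in the stage difference of **Dor**. The *fzd10.S* set S1_at, called in **Dkk**, and *fzd5.S*, called in the other comparisons named, were among the probe sets removed. Cyclic loess left 1 in **Dkk** at stage 11.5. With rank products 23 calls were kept and 10 lost, and they were not run on the stage differences. Rank products gave 1 in **Nog+Dkk** against **Dkk** at stage 10, 6 in **Dor** at stage 11.5 and 1 in **Nog+Dkk** against **Dor** at stage 11.5. Without the 2 arrays with conflicting clutch labels the stage difference of **Nog** had 0. With 1 clutch left out, the number was 1 to 1 in **Dor** at stage 10. At stage 11.5 it was 8 to 10 in **Dor**, 4 to 5 in **Nog**, 5 to 7 in **Nog+Dkk**, 2 to 4 in **Dkk**, 1 to 5 in **Nog+Dkk** against **Nog**, 0 to 1 against **Dkk** and 2 to 3 against **Dor**. For the stage differences it was 0 to 4 in **Dor**, in **Nog** and in **Nog+Dkk**, and 0 to 1 in **Dkk**. The fits without 1 clutch have 4 residual degrees of freedom and assume that the lone arrays vary like those of the other stage. The share of all probe sets called under each alternative is not given here. The numbers above therefore show only how far the calls depend on the processing, and are no result about the Frizzled genes. Beyond these constructions the cause was not tested.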
